A study of Mus musculus with 12 samples.

Results

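The lysosomal hydrolases and membrane proteins described here are 46 genes out of 49315 genes in the count tables. They were chosen by symbol for the known place of their products in the lysosome, with earlier results of these data known. They were sorted by role into 12 proteases, 12 glycosidases, 5 sulfatases, 7 lipid enzymes and carriers, 9 membrane proteins, and progranulin. Their messages were counted by RNA sequencing of MEFs (mouse embryonic fibroblasts, the connective tissue cells that grow out of minced embryos) treated for 24 h. The 4 groups were cells given RapaLink-1 at 10 nM, Torin1 at 250 nM, rapamycin at 20 ng/ml, or the solvent DMSO, with 3 libraries each. Rapamycin binds the protein FKBP12 and with it the kinase complex mTORC1, Torin1 occupies the ATP site of the mTOR kinase in both of its complexes, and RapaLink-1 joins rapamycin to an inhibitor of the kinase through a linker. The labels give no genotype, strain or embryonic age for the MEFs, nor whether each library had its own culture, so the p-values speak of the spread among these libraries, which may be technical. The compounds were given at unlike doses, and any contrast of a pair of them holds for those doses.

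Lysosomes are acidic organelles in which hydrolases break down proteins, glycans and lipids that arrive by endocytosis and autophagy. Most of the soluble enzymes are tagged in the Golgi with mannose 6-phosphate and carried to the lysosome by receptors, while membrane proteins such as LAMP1 and LAMP2 line its wall and transporters and channels let products and ions out. mTORC1 works at the lysosomal surface, where it phosphorylates the transcription factors TFEB and TFE3 and so keeps them in the cytosol. In the nucleus these factors bind a palindromic promoter motif, the CLEAR element, found in many lysosomal genes.

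Because that motif is a known link between mTORC1 and many lysosomal genes, promoter windows were searched for it in RefSeq sequence of GRCm38.p6. The windows ran from 250 bases before to 50 bases after the transcript start. Windows were held for 40 of the 46 genes (Ctsb, Ctsh, Aga, Galns, Asah1 and Npc1 had no entry). Psap, Cln3, Ctsa and Lgmn had a pair of windows each, which made 44 in all, and a gene was counted where either held the motif. The core CACGTG, which reads the same on both strands, stood in a window of 14 of the 40 genes (35%), against 8.09% of 27025 genes with a window. These 27025 genes were taken whether expressed in the MEFs or not, and no share was computed for expressed genes alone. A longer form that contains the core, TCACGTGA, stood in a window of 5 genes (12.5%, Cln3, Ctsa, Ctsd, Gla and Mcoln1), against 1.12% of all genes with a window. A 10-base form of the CLEAR element was also searched and stood in a window of 1 gene, Cln3 (2.5%), against 0.37% of all genes with a window. The other genes with the core were Arsa, Ctsf, Ctsl, Gaa, Glb1, Lamp1, Lgmn, Naglu and Sgsh. For Cln3, Ctsa and Lgmn the motif stood only in the window further inside the gene. The window nearer the annotated gene start held none. The bases just past the start of the Lgmn window with the motif were found in no annotated transcript of the gene. Stretches that lie wholly outside annotated exons are printed for 6 of these genes, as they show the motif in proteases, glycosidases, a sulfatase and a membrane protein that are described further on. They are written 5′ to 3′ on the strand of the gene, with the motif in capitals.
Ctsf: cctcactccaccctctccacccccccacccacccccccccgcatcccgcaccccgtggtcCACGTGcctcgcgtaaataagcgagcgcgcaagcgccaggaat
Ctsl: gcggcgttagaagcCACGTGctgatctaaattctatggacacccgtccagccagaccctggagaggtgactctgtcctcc
Gaa: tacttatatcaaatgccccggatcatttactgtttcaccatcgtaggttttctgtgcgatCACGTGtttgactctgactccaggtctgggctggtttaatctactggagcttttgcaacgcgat
Glb1: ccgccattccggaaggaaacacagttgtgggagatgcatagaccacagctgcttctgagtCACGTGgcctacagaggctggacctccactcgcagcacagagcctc
Arsa: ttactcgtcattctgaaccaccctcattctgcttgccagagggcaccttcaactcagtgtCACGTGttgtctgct
Lamp1: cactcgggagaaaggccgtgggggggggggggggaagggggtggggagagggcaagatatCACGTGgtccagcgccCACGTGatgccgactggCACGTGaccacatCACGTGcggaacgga
They come from chr19:4855026-4855128 (Ctsf, plus strand), chr13:64370691-64370770 (Ctsl, minus strand), chr11:119267763-119267886 (Gaa, plus strand), chr9:114400970-114401075 (Glb1, plus strand), chr15:89477426-89477500 (Arsa, minus strand) and chr8:13159040-13159160 (Lamp1, plus strand). The Lamp1 stretch held 4 copies of the core and each of the others 1. A match of letters is a description of the window and not a measured binding site, and no binding was measured here.

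Total counts were 30075870 to 39423703 per library. Mitochondrially encoded messages took 1.2% to 1.21% of the counts with RapaLink-1, 1.36% to 1.39% with Torin1, 1.29% to 1.32% with rapamycin and 1.08% to 1.11% with DMSO, and the part of this share in the results was not tested. The 12 fibroblast markers, such as Col1a1 and Vim, summed to 2104 to 2147 RPKM (reads per kilobase of exonic length, scaled to library size) with RapaLink-1. The sums were 2168 to 2188 with Torin1, 2106 to 2151 with rapamycin and 2440 to 2482 with DMSO. Of these markers 11 passed the filter on low counts. By the mean over the 12 libraries Vim (819.5 RPKM) and Col1a1 (645.5) lay highest, and Lum (0.35) and Fap (0.03, not passed) lowest. Single markers within the sum moved in unlike directions. On the log2 scale against DMSO, Col3a1 changed by -1.28 with RapaLink-1 and -1.28 with Torin1, and Dcn by 1.07 and 1.51. Postn changed by -0.28 and 1.06 in the same order. The 12 macrophage markers, of which 4 passed the filter on low counts, summed to 3.44 to 4.21 RPKM with RapaLink-1, 3.10 to 3.89 with Torin1, 3.82 to 4.39 with rapamycin and 4.31 to 4.78 with DMSO. Of the macrophage markers, Cd14 made up most of the sums, with a mean of 3.31 RPKM over the 12 libraries. Against DMSO Cd14 changed by -0.39 with RapaLink-1 and -0.66 with Torin1 on the log2 scale. Csf1r, at a mean of 0.17 RPKM, changed by 1.65 and 1.64 in the same order. Another gene, Hmgxb3, overlaps 17.8% of the exonic bases of Csf1r. Tyrobp and C1qb had no count in any library. The 7 osteoclast markers, of which 2 passed, summed to 2.05 to 3.24 RPKM in all groups. Mmp9, with a mean of 2.35 RPKM over the 12 libraries, made up most of these sums. Endothelial and epithelial markers each summed to under 1 RPKM in every library. Replicates were close, with a biological coefficient of variation of 1.48%.

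Together the 46 genes took 1.01% of all counts in each RapaLink-1 library, 0.943% to 0.954% in the Torin1 libraries, 0.804% to 0.817% in the rapamycin libraries and 0.670% to 0.674% in the DMSO libraries. The 4 groups did not overlap in this share. Counts are relative to the whole library, so a higher share can come from more of these messages per cell or from less of the others. In these bulk cultures fewer cells of a type and less RNA per cell cannot be told apart.

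**Figure D1:**
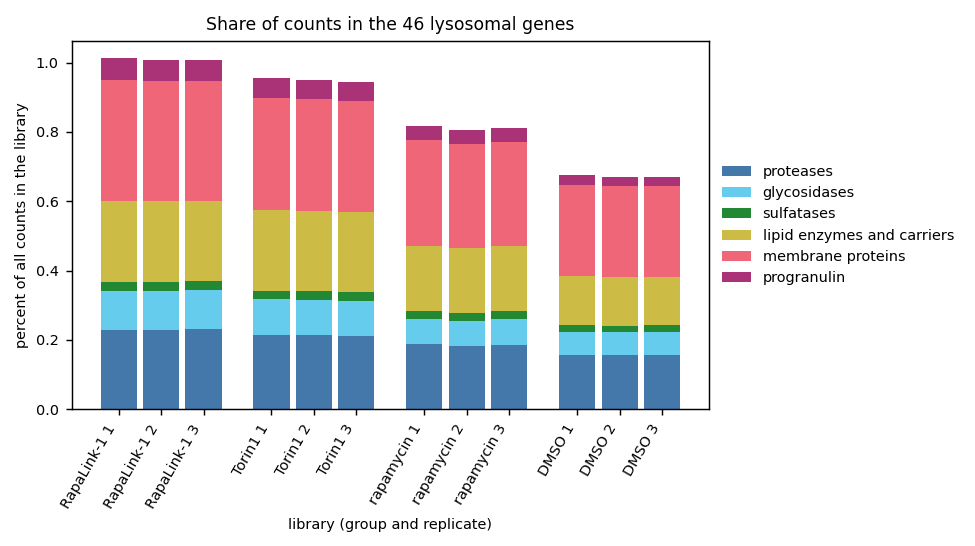
Share of all counts (percent) that fell on the 46 lysosomal genes, split by role, in each of the 12 libraries, with the groups in the order RapaLink-1, Torin1, rapamycin and DMSO. The total was 1.01% in each RapaLink-1 library and 0.670% to 0.674% in the DMSO libraries.

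Of the 46 genes, 45 passed the filter on low counts. The one left out was Ctss, the gene of cathepsin S, a protease best known from antigen-presenting cells, which had 0 to 2 counts in each library. Genes were called at an adjusted p under 0.05 in the quasi-likelihood test of edgeR, adjusted by the Benjamini-Hochberg method over 15917 genes, and this is what "rose" and "fell" mean below. With RapaLink-1, 41 of the 45 rose and 2 fell against DMSO, where 38.7% of all genes tested rose and 37.9% fell. With Torin1, 37 rose and 2 fell, against 39.8% and 38.3% of all genes. With rapamycin, 34 rose and 2 fell, against 27.5% and 32.2% of all genes. The median log2 fold change of the 45 genes was 0.55 with RapaLink-1 (0.03 over all genes tested), 0.47 with Torin1 (0.04) and 0.16 with rapamycin (0.004). Rises of at least 1.5-fold numbered 20 with RapaLink-1, 16 with Torin1 and 2 with rapamycin, set against 19.6%, 21.6% and 8.36% of all genes, so that the 2 with rapamycin were no larger a share than among all genes. Such a fall was seen for Gusb with Torin1, where 16.2% of all genes fell that far. Upper-quartile scaling, which moves the median of all genes tested by 0.14, 0.13 and 0.06 in these comparisons, raised the medians of the 45 genes to 0.69, 0.59 and 0.22 in the same order. DESeq2 called 37 higher with RapaLink-1, 33 with Torin1 and 27 with rapamycin. It did not call Cln3 and Fuca1 with RapaLink-1 or Torin1, Scarb2 and Smpd1 with RapaLink-1 or rapamycin, Ctsz and Manba with Torin1, or Arsb, Ctsz, Galns, Glb1, Ids and Sgsh with rapamycin. Upper-quartile scaling also changed the split of calls over all genes against DMSO, to 7629 higher and 4823 lower with RapaLink-1 (6165 and 6036 before) and to 5481 and 4061 with rapamycin (4381 and 5127 before).

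**Figure D2:**
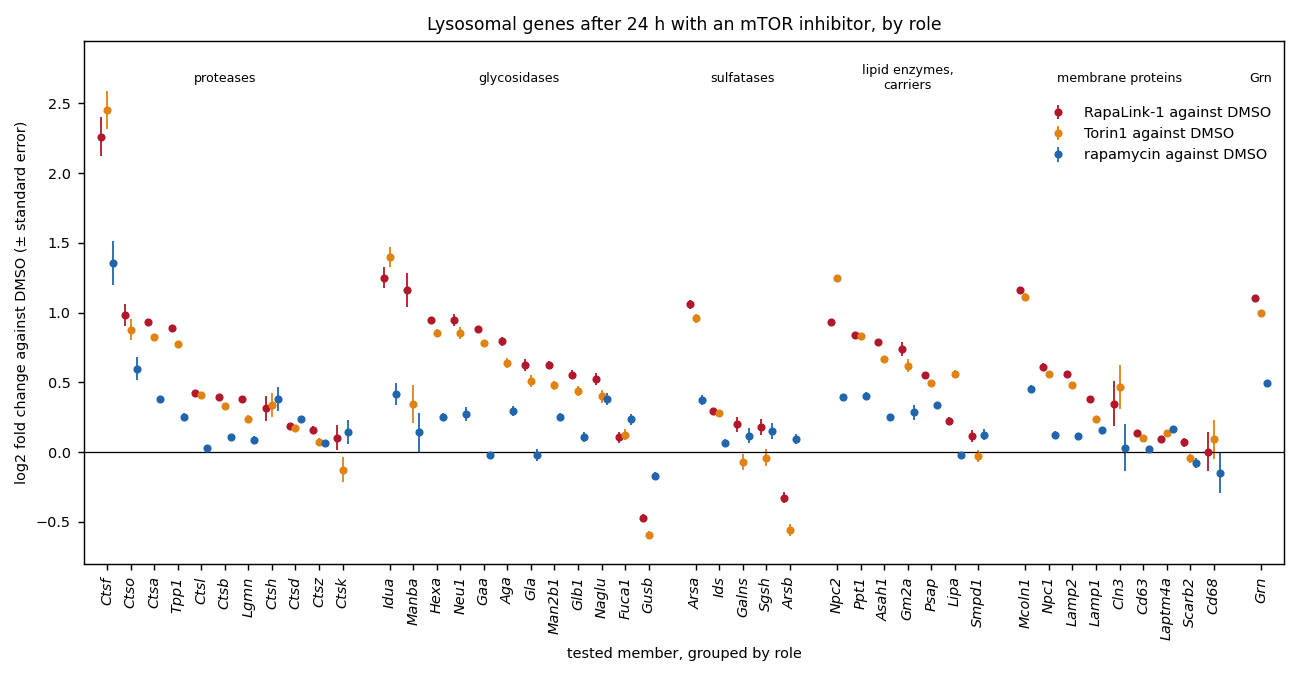
Log2 fold changes against DMSO of the 45 genes tested, grouped by role, with the estimate for RapaLink-1, Torin1 and rapamycin and bars of 1 standard error. Most points lie above 0, and Gusb and Arsb lie below 0 with RapaLink-1 and Torin1.

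Progranulin (Grn, ENSMUSG00000034708, chromosome 11, 102430315 to 102437048 in GRCm38, plus strand) is a secreted and lysosomal protein cut into granulins, whose loss leads to lysosomal storage disease in people. Grn had 174, 171 and 171 RPKM in the RapaLink-1 libraries, 162, 160.0 and 159 in the Torin1 libraries, 116, 110.3 and 113 in the rapamycin libraries and 80.6, 79.6 and 80.2 in the DMSO libraries. Every treated library lay above every DMSO library, and the 3 treated groups did not overlap with each other. Grn rose by 1.10 ± 0.02 with RapaLink-1 on the log2 scale (± standard error, adjusted p = 5.65e-116), by 1.00 ± 0.02 with Torin1 (adjusted p = 2.05e-109) and by 0.50 ± 0.02 with rapamycin (adjusted p = 1.52e-63). It was higher with RapaLink-1 than with Torin1 by 0.10 ± 0.02 (adjusted p = 1.65e-08) and higher with Torin1 than with rapamycin by 0.50 ± 0.02 (adjusted p = 1.78e-67).

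Among the proteases, 10 of 11 tested rose with RapaLink-1, 10 with Torin1 and 9 with rapamycin, and none fell in these 3 comparisons at the threshold. Over all genes tested 38.7%, 39.8% and 27.5% rose in these comparisons, and 37.9%, 38.3% and 32.2% fell. The same shares apply to the counts of the other roles below. The largest rise was that of Ctsf (ENSMUSG00000083282, chromosome 19, 4855129 to 4860912 in GRCm38, plus strand), the gene of the cysteine protease cathepsin F. Ctsf had 2.66, 2.83 and 2.72 RPKM in the RapaLink-1 libraries, 3.47, 3.29 and 2.69 in the Torin1 libraries, 1.46, 1.47 and 1.45 in the rapamycin libraries and 0.505, 0.573 and 0.636 in the DMSO libraries. The DMSO libraries were lowest and the rapamycin libraries lay between them and the rest without overlap, while the RapaLink-1 and Torin1 libraries overlapped. Ctsf rose by 2.26 ± 0.14 with RapaLink-1, 2.45 ± 0.14 with Torin1 and 1.35 ± 0.16 with rapamycin (adjusted p = 3.08e-35, 3.49e-40 and 5.23e-14). RapaLink-1 against Torin1 was not called for it, at -0.19 ± 0.10 (95% interval -0.38 to -0.001). That call was gained without Torin1 replicate 3, at -0.29.

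Ctsl (ENSMUSG00000021477, chromosome 13, 64363214 to 64370306 in GRCm38, minus strand), encoding the endopeptidase cathepsin L, had the highest level per length of the proteases. Ctsl had 196, 197 and 202 RPKM in the RapaLink-1 libraries, 199, 196 and 195 in the Torin1 libraries, 155, 150.2 and 146 in the rapamycin libraries and 146, 148 and 149.7 in the DMSO libraries. RapaLink-1 and Torin1 libraries overlapped and stood above all the others, whereas rapamycin and DMSO libraries overlapped. Ctsl rose by 0.42 ± 0.02 with RapaLink-1 and 0.41 ± 0.02 with Torin1 (adjusted p = 9.03e-54 and 2.34e-52). With rapamycin it was at 0.03 ± 0.02 (adjusted p = 0.201), and it passed without rapamycin replicate 3, at 0.04, and with upper-quartile scaling, at 0.09. The difference between Torin1 and rapamycin was called for Ctsl, at 0.38 ± 0.02.

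Other proteases with large rises were Ctsa, encoding the carboxypeptidase cathepsin A that also protects the sialidase and β-galactosidase, at 0.94 ± 0.02, 0.82 ± 0.02 and 0.38 ± 0.02 with RapaLink-1, Torin1 and rapamycin. Tpp1, the tripeptidyl peptidase lost in a childhood neuronal storage disease, was at 0.89 ± 0.02, 0.77 ± 0.02 and 0.25 ± 0.02. Ctso, the gene of cathepsin O, was at 0.98 ± 0.08, 0.88 ± 0.08 and 0.60 ± 0.08, which with Ctsf made up the rises of at least 1.5-fold with rapamycin. Smaller rises in all 3 comparisons were seen for Ctsb (cathepsin B, 0.40 ± 0.01, 0.33 ± 0.01 and 0.10 ± 0.02) and the asparaginyl endopeptidase gene Lgmn (0.38 ± 0.02, 0.24 ± 0.02 and 0.09 ± 0.02). Other genes overlap 17.4% of the exonic bases of Ctsa, 10.5% by Pltp alone, and Fdft1 overlaps 16.2% of those of Ctsb, so their levels are uncertain. Ctsz, the carboxypeptidase cathepsin Z, rose by 0.16 ± 0.03 with RapaLink-1. At 0.08 ± 0.03 with Torin1 and 0.06 ± 0.03 with rapamycin its call depended on the libraries. With Torin1 it was lost without DMSO replicate 2 (0.06) or Torin1 replicate 2 (0.05), and with rapamycin without DMSO replicate 1 (0.06) or 2 (0.04) or rapamycin replicate 1 (0.04) or 3 (0.06).

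Ctsd, encoding the aspartic protease cathepsin D, and Ctsh, encoding the aminopeptidase cathepsin H, had their highest means with rapamycin. Ctsd averaged 101 ± 2 RPKM with RapaLink-1, 99.5 ± 1.1 RPKM with Torin1, 104 ± 2.8 RPKM with rapamycin and 88.3 ± 0.81 RPKM with DMSO (SD, n = 3 each). It rose against DMSO by 0.19 ± 0.02 with RapaLink-1, 0.17 ± 0.02 with Torin1 and 0.24 ± 0.02 with rapamycin, and was lower with Torin1 than with rapamycin by a log2 difference of -0.07 ± 0.02. That difference was not called once genes under a mean of 5 CPM were dropped (-0.04) or upper-quartile scaling was used (-0.01). The gene Gm49369 overlaps 34.4% of its exonic bases, so its level is uncertain. Ctsh averaged 1.58 ± 0.065 RPKM with RapaLink-1, 1.6 ± 0.13 RPKM with Torin1, 1.66 ± 0.15 RPKM with rapamycin and 1.27 ± 0.051 RPKM with DMSO (SD, n = 3 each), and no difference between compounds was called for it. Ctsk, the collagenase cathepsin K of osteoclasts, was not called against DMSO, at 0.10 ± 0.09, -0.12 ± 0.09 and 0.14 ± 0.09 with RapaLink-1, Torin1 and rapamycin, but passed with upper-quartile scaling for RapaLink-1 (0.24) and rapamycin (0.21).

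Of the 12 glycosidases, 11 rose with RapaLink-1 and with Torin1 and 8 with rapamycin, and Gusb fell with each. Gaa (ENSMUSG00000025579, chromosome 11, 119267887 to 119285454 in GRCm38, plus strand), encoding the acid α-glucosidase that breaks down glycogen and is missing in Pompe disease, had the highest level of them. Gaa had 109, 111 and 110.0 RPKM in the RapaLink-1 libraries, 103, 103 and 101 in the Torin1 libraries, 59.1, 57.5 and 59.1 in the rapamycin libraries and 59.6, 59.1 and 59.8 in the DMSO libraries. The RapaLink-1 and Torin1 libraries stood far above the rest without overlapping each other, while the rapamycin and DMSO libraries were nearly level. Gaa rose by 0.89 ± 0.02 with RapaLink-1 and 0.78 ± 0.02 with Torin1 (adjusted p = 1.63e-101 and 1.53e-93), and was not called with rapamycin, at -0.02 ± 0.02 (adjusted p = 0.276, 95% interval -0.06 to 0.01). Upper-quartile scaling turned that value to 0.04 and past the threshold. Torin1 exceeded rapamycin by 0.81 ± 0.02 (adjusted p = 1.09e-94). Gla, whose product α-galactosidase A is missing in Fabry disease, had the same calls, at 0.63 ± 0.04 with RapaLink-1, 0.51 ± 0.04 with Torin1 and -0.02 ± 0.05 with rapamycin, and was higher with Torin1 than with rapamycin by 0.53 ± 0.04.

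Idua (ENSMUSG00000033540, chromosome 5, 108660331 to 108684557 in GRCm38, plus strand), encoding α-L-iduronidase of glycosaminoglycan breakdown, rose most among the glycosidases. Idua had 3.54, 3.25 and 3.31 RPKM in the RapaLink-1 libraries, 3.74, 3.65 and 3.75 in the Torin1 libraries, 1.87, 1.82 and 1.95 in the rapamycin libraries and 1.53, 1.36 and 1.33 in the DMSO libraries. Its libraries formed 4 separate groups with Torin1 highest. Idua rose by 1.25 ± 0.07 with RapaLink-1, 1.40 ± 0.07 with Torin1 and 0.42 ± 0.08 with rapamycin (adjusted p = 2.18e-37, 1.81e-43 and 2.98e-06). RapaLink-1 against Torin1 was at -0.14 ± 0.06 (adjusted p = 0.0536) and was called without RapaLink-1 replicate 1, at -0.17.

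Gusb (ENSMUSG00000025534, chromosome 5, 129989011 to 130003049 in GRCm38, minus strand), the gene of β-glucuronidase, fell in each comparison with DMSO. Gusb had 14.4, 14.1 and 13.9 RPKM in the RapaLink-1 libraries, 13.2, 12.9 and 12.8 in the Torin1 libraries, 17, 17.4 and 17.7 in the rapamycin libraries and 19.9, 19.5 and 19.3 in the DMSO libraries. All 4 groups were separate, with Torin1 lowest and DMSO highest. Gusb changed by -0.47 ± 0.03 with RapaLink-1, -0.59 ± 0.03 with Torin1 and -0.17 ± 0.03 with rapamycin (adjusted p = 7.27e-36, 1.64e-46 and 8.79e-09). It was lower with Torin1 than with rapamycin, at -0.42 ± 0.03, and higher with RapaLink-1 than with Torin1, at 0.13 ± 0.03.

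Manba (ENSMUSG00000028164, chromosome 3, 135485611 to 135571404 in GRCm38, plus strand), encoding β-mannosidase, had the largest difference between RapaLink-1 and Torin1 among all 45 genes, at a low level. Manba had 0.848, 0.692 and 0.828 RPKM in the RapaLink-1 libraries, 0.448, 0.504 and 0.391 in the Torin1 libraries, 0.44, 0.399 and 0.329 in the rapamycin libraries and 0.354, 0.389 and 0.312 in the DMSO libraries. RapaLink-1 libraries stood above all the others, and the remaining 3 groups lay close together. Manba rose by 1.16 ± 0.12 with RapaLink-1 (adjusted p = 2.19e-17) and exceeded Torin1 by 0.82 ± 0.12 (adjusted p = 5.36e-10). Torin1 against DMSO was at 0.35 ± 0.14 (adjusted p = 0.0149), a call lost without DMSO replicate 3 (0.27) or Torin1 replicate 2 (0.24), and rapamycin was not called, at 0.14 ± 0.14.

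The other glycosidases rose with all 3 compounds. Hexa, encoding the α subunit of β-hexosaminidase that is lost in Tay-Sachs disease, was at 0.95 ± 0.03 with RapaLink-1, 0.86 ± 0.03 with Torin1 and 0.25 ± 0.03 with rapamycin, and another gene overlaps 12.8% of its exonic bases. The sialidase gene Neu1 was at 0.95 ± 0.04, 0.85 ± 0.04 and 0.27 ± 0.05 in the same order of compounds. Aga, grouped here with the glycosidases, encodes an amidase that cuts the bond between sugar and asparagine in glycoprotein remnants. Aga was at 0.79 ± 0.04, 0.64 ± 0.04 and 0.29 ± 0.04 in that order. The α-mannosidase gene Man2b1 was at 0.62 ± 0.03, 0.48 ± 0.03 and 0.25 ± 0.03, the β-galactosidase gene Glb1 at 0.56 ± 0.04, 0.43 ± 0.04 and 0.11 ± 0.04, and Naglu, of heparan sulfate breakdown, at 0.53 ± 0.04, 0.40 ± 0.04 and 0.38 ± 0.04. Naglu was not called between Torin1 and rapamycin, at 0.02 ± 0.04 (95% interval -0.07 to 0.10). Fuca1, the α-L-fucosidase gene, was at 0.10 ± 0.04 with RapaLink-1, 0.13 ± 0.04 with Torin1 and 0.23 ± 0.04 with rapamycin, the RapaLink-1 call being lost without DMSO replicate 1 (0.10) or RapaLink-1 replicate 1 (0.08). Its level was lower with RapaLink-1 than with rapamycin, at -0.13 ± 0.04, a call lost with upper-quartile scaling (-0.06).

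**Figure D3:**
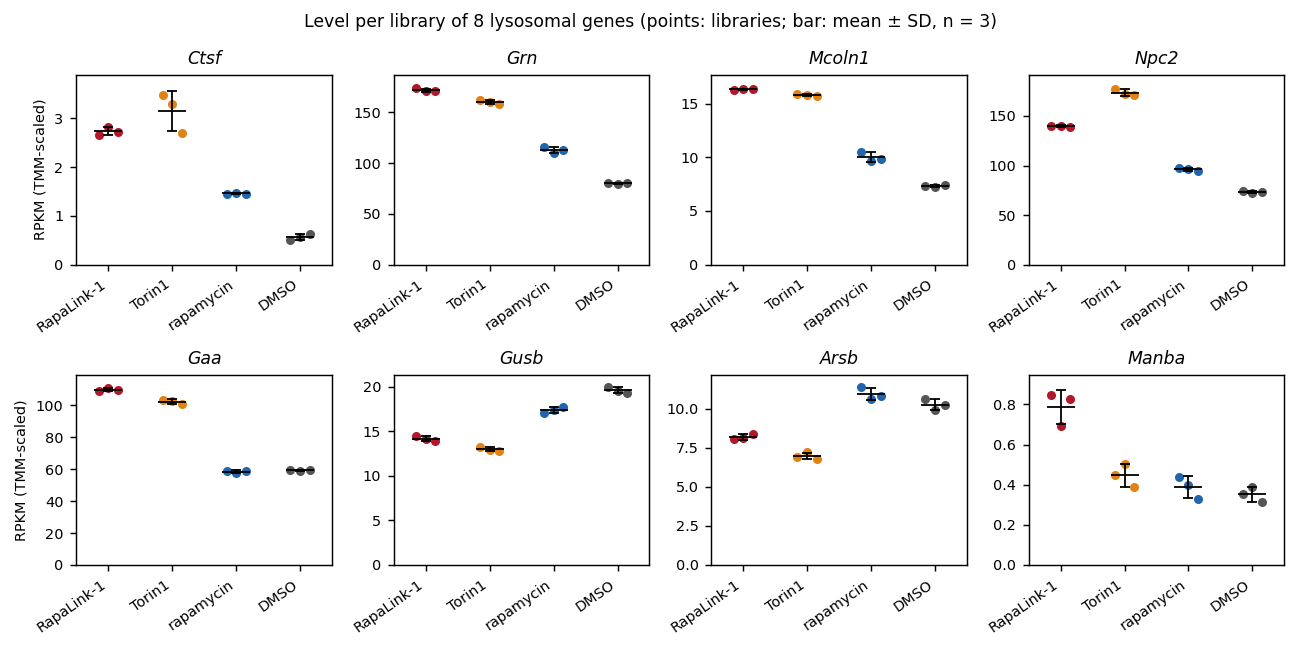
Level (RPKM, each panel on its own axis starting at 0) of 8 genes in each library, with groups from left RapaLink-1, Torin1, rapamycin and DMSO, points for libraries and a bar for the group mean. Ctsf, Grn, Mcoln1 and Npc2 were higher in each treated group than with DMSO, Gaa in the RapaLink-1 and Torin1 groups, Gusb and Arsb were lower with RapaLink-1 and Torin1, and Manba stood out with RapaLink-1.

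The 5 sulfatases, which remove sulfate groups from glycosaminoglycans and sulfolipids, did not all move in the same direction with RapaLink-1 or Torin1. With RapaLink-1 4 rose and 1 fell, and with Torin1 2 rose and 1 fell. With rapamycin all 5 rose, 4 of them by 0.07 to 0.15 on the log2 scale. As 39.8% of all genes tested rose and 38.3% fell with Torin1, nothing is read from the counts of so few genes. Arsa (ENSMUSG00000022620, chromosome 15, 89472476 to 89477425 in GRCm38, minus strand), encoding arylsulfatase A that acts on sulfatide, rose most. Arsa had 22.4, 22.7 and 22.8 RPKM in the RapaLink-1 libraries, 21.1, 21 and 21.3 in the Torin1 libraries, 14.3, 13.9 and 13.9 in the rapamycin libraries and 10.7, 11.1 and 10.8 in the DMSO libraries. Each group was separate, in the order RapaLink-1, Torin1, rapamycin and DMSO from the highest. Arsa rose by 1.06 ± 0.03, 0.96 ± 0.03 and 0.37 ± 0.03 in the first 3 of these (adjusted p = 2.82e-74, 8.26e-68 and 1.17e-20), and another gene overlaps 18.8% of its exonic bases. Ids (ENSMUSG00000035847, chromosome X, 70343069 to 70365084 in GRCm38, minus strand), encoding iduronate 2-sulfatase, had the highest mean level of the role over the 12 libraries. Ids had 22.7, 22.7 and 22.1 RPKM in the RapaLink-1 libraries, 22.3, 22.7 and 21.8 in the Torin1 libraries, 18.6, 19.5 and 19.6 in the rapamycin libraries and 18.7, 18.2 and 18.1 in the DMSO libraries. RapaLink-1 and Torin1 libraries overlapped and lay above the rest. Ids rose by 0.29 ± 0.03 with RapaLink-1 and 0.28 ± 0.03 with Torin1. Its rise with rapamycin, 0.07 ± 0.03 (adjusted p = 0.0155), was lost without DMSO replicate 2 (0.06) or 3 (0.06) or rapamycin replicate 2 (0.06) or 3 (0.05).

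Arsb (ENSMUSG00000042082, chromosome 13, 93771679 to 93943016 in GRCm38, plus strand), the gene of arylsulfatase B that acts on dermatan sulfate, fell with RapaLink-1 and Torin1. Arsb had 8.03, 8.13 and 8.38 RPKM in the RapaLink-1 libraries, 6.9, 7.21 and 6.8 in the Torin1 libraries, 11.4, 10.6 and 10.8 in the rapamycin libraries and 10.6, 9.92 and 10.2 in the DMSO libraries. The Torin1 libraries were lowest, the RapaLink-1 libraries next, and the lowest rapamycin library was level with the highest DMSO library. Arsb fell by 0.33 ± 0.04 with RapaLink-1 and by 0.56 ± 0.04 with Torin1 (adjusted p = 6.77e-14 and 8.9e-29). With rapamycin it was at 0.09 ± 0.04 (adjusted p = 0.0245), a call lost without DMSO replicate 2 (0.07) or 3 (0.09) or rapamycin replicate 1 (0.06), but the difference between Torin1 and rapamycin was called at -0.65 ± 0.04 (adjusted p = 4e-35). The antisense gene Gm26527, with 0 counts, overlaps 48.8% of the exonic bases of Arsb, so its level is uncertain.

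Galns (ENSMUSG00000015027, chromosome 8, 122578242 to 122611463 in GRCm38, minus strand) and Sgsh encode sulfatases of keratan and heparan sulfate breakdown. Galns had 7.49, 6.88 and 7.14 RPKM in the RapaLink-1 libraries, 6.01, 5.69 and 6.08 in the Torin1 libraries, 6.97, 6.93 and 6.46 in the rapamycin libraries and 6.12, 6.23 and 6.37 in the DMSO libraries. The Torin1 and DMSO libraries were the lower ones for Galns, and RapaLink-1 and rapamycin libraries overlapped above them. Galns was higher with RapaLink-1 than with Torin1 by 0.27 ± 0.06 (adjusted p = 1.54e-05), and Sgsh by 0.22 ± 0.06 (adjusted p = 0.00144). Both rose with RapaLink-1 against DMSO, Galns by 0.20 ± 0.05 and Sgsh by 0.18 ± 0.06, and were not called with Torin1, Galns at -0.07 ± 0.06 and Sgsh at -0.04 ± 0.06. With rapamycin Galns was at 0.12 ± 0.05 and Sgsh at 0.15 ± 0.06, calls that were not stable. That of Galns was lost without any 1 of DMSO replicates 1 to 3 or rapamycin replicates 1 and 2 (0.10 to 0.13). That of Sgsh was lost without DMSO replicate 1 (0.12) or 2 (0.12) or rapamycin replicate 3 (0.14). The antisense gene Card14 overlaps 21.6% of the exonic bases of Sgsh.

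All 7 lipid enzymes and carriers rose with RapaLink-1, and 6 of 7 with Torin1 and with rapamycin. Psap (ENSMUSG00000004207, chromosome 10, 60277627 to 60302597 in GRCm38, plus strand), encoding the precursor of the saposins that help hydrolases reach their lipids, had the highest level of the role. Psap had 458, 458 and 447 RPKM in the RapaLink-1 libraries, 440.1, 436 and 439 in the Torin1 libraries, 395, 391 and 393 in the rapamycin libraries and 315, 306 and 309.5 in the DMSO libraries. Rapamycin libraries stood clearly above DMSO, and RapaLink-1 and Torin1 libraries higher still. Psap rose by 0.55 ± 0.01, 0.50 ± 0.01 and 0.34 ± 0.01 with RapaLink-1, Torin1 and rapamycin (adjusted p = 5.95e-81, 5.05e-75 and 3.25e-52).

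Npc2 (ENSMUSG00000021242, chromosome 12, 84754560 to 84773112 in GRCm38, minus strand), encoding the soluble carrier that takes cholesterol to the membrane protein NPC1, rose most in this role, and most with Torin1. Npc2 had 140.3, 140.0 and 138 RPKM in the RapaLink-1 libraries, 177, 172 and 171 in the Torin1 libraries, 97.9, 96.1 and 94.8 in the rapamycin libraries and 73.8, 71.8 and 73.5 in the DMSO libraries. The 4 groups were separate. Npc2 rose by 0.93 ± 0.02 with RapaLink-1, 1.25 ± 0.02 with Torin1 and 0.40 ± 0.02 with rapamycin (adjusted p = 1.7e-102, 2.28e-122 and 4.49e-49), and was lower with RapaLink-1 than with Torin1, at -0.31 ± 0.02 (adjusted p = 5.8e-41). Lipa (ENSMUSG00000024781, chromosome 19, 34492318 to 34527474 in GRCm38, minus strand), encoding the acid lipase that frees cholesterol from its esters, had the largest fall of RapaLink-1 against Torin1. Lipa had 29.2, 31 and 29.9 RPKM in the RapaLink-1 libraries, 38, 37.5 and 38.2 in the Torin1 libraries, 24.9, 25.6 and 25.4 in the rapamycin libraries and 25.5, 25.9 and 25.6 in the DMSO libraries. Torin1 libraries were highest and RapaLink-1 libraries next, while rapamycin and DMSO libraries overlapped. Lipa was lower with RapaLink-1 than with Torin1 at -0.34 ± 0.03 (adjusted p = 1.53e-25), and against DMSO it rose by 0.23 ± 0.03 with RapaLink-1 and 0.56 ± 0.03 with Torin1 and was at -0.02 ± 0.03 with rapamycin (adjusted p = 0.48).

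The palmitoyl thioesterase gene Ppt1 was at 0.84 ± 0.03, 0.83 ± 0.03 and 0.40 ± 0.03 with RapaLink-1, Torin1 and rapamycin, and the ceramidase gene Asah1 at 0.79 ± 0.02, 0.67 ± 0.02 and 0.25 ± 0.02. Gm2a, encoding the protein that lifts GM2 ganglioside to β-hexosaminidase, was at 0.74 ± 0.05, 0.62 ± 0.05 and 0.28 ± 0.05. These 3 rose in each comparison. Smpd1, the acid sphingomyelinase gene, was at 0.12 ± 0.04 with RapaLink-1, -0.03 ± 0.04 with Torin1 (not called) and 0.13 ± 0.04 with rapamycin, and lower with Torin1 than with rapamycin at -0.15 ± 0.04. Upper-quartile scaling turned the Torin1 value to 0.10. Its RapaLink-1 call was lost without RapaLink-1 replicate 2 (0.08) and its rapamycin call without rapamycin replicate 3 (0.09).

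Of the 9 membrane proteins, 8 rose with RapaLink-1, 7 with Torin1 and 5 with rapamycin, and Scarb2 fell with rapamycin. Mcoln1 (ENSMUSG00000004567, chromosome 8, 3500457 to 3515232 in GRCm38, plus strand), encoding the calcium channel TRPML1 of the lysosomal membrane, rose most. Mcoln1 had 16.3, 16.4 and 16.3 RPKM in the RapaLink-1 libraries, 15.9, 15.8 and 15.7 in the Torin1 libraries, 10.5, 9.67 and 9.87 in the rapamycin libraries and 7.33, 7.25 and 7.38 in the DMSO libraries. RapaLink-1 libraries were highest, Torin1 libraries next, rapamycin libraries next and DMSO libraries lowest, with no overlap. Mcoln1 rose by 1.16 ± 0.03, 1.11 ± 0.03 and 0.46 ± 0.03 with RapaLink-1, Torin1 and rapamycin (adjusted p = 2.27e-88, 1.61e-85 and 6.82e-33), and RapaLink-1 against Torin1 was not called, at 0.05 ± 0.02 (95% interval -0.001 to 0.10).

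Cd63 (ENSMUSG00000025351, chromosome 10, 128908919 to 128912816 in GRCm38, plus strand), a tetraspanin of late endosomes and lysosomes, had the highest level per length of all 46 genes. Cd63 had 754, 735 and 742 RPKM in the RapaLink-1 libraries, 732, 716 and 719.7 in the Torin1 libraries, 700.5, 673 and 682 in the rapamycin libraries and 680.1, 673 and 671 in the DMSO libraries. The groups lay within a narrow range, and rapamycin and DMSO libraries overlapped. Cd63 rose by 0.14 ± 0.01 with RapaLink-1 and 0.10 ± 0.01 with Torin1 (adjusted p = 7.52e-16 and 3.31e-09), and was not called with rapamycin, at 0.02 ± 0.01, though it was with upper-quartile scaling, at 0.09. Lamp1 and Lamp2, encoding the main glycoproteins of the lysosomal wall, rose with each compound. Lamp1, of whose exonic bases another gene overlaps 9.31%, was at 0.38 ± 0.01, 0.24 ± 0.01 and 0.16 ± 0.01 with RapaLink-1, Torin1 and rapamycin, and Lamp2 at 0.56 ± 0.02, 0.48 ± 0.02 and 0.12 ± 0.02. Npc1, encoding the membrane protein that exports cholesterol, was at 0.61 ± 0.03, 0.56 ± 0.03 and 0.12 ± 0.03 in the same order.

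Scarb2 (ENSMUSG00000029426, chromosome 5, 92441314 to 92506833 in GRCm38, minus strand), encoding the receptor LIMP-2 that carries β-glucocerebrosidase to the lysosome, was called in opposite directions by RapaLink-1 and rapamycin. Scarb2 had 9.67, 9.27 and 9.57 RPKM in the RapaLink-1 libraries, 8.9, 8.56 and 8.87 in the Torin1 libraries, 8.53, 8.78 and 8.42 in the rapamycin libraries and 8.76, 9.62 and 8.78 in the DMSO libraries. The DMSO libraries spanned most of the range, so both groups overlapped with them. Against DMSO Scarb2 was at 0.07 ± 0.03 with RapaLink-1 (adjusted p = 0.038) and -0.08 ± 0.03 with rapamycin (adjusted p = 0.032). The RapaLink-1 call was lost without DMSO replicate 1 (0.04) or 3 (0.05) or RapaLink-1 replicate 1 (0.06) or 3 (0.06). The rapamycin call was lost without DMSO replicate 2 (-0.04) or rapamycin replicate 1 (-0.08) or 3 (-0.07). The direct difference of RapaLink-1 against rapamycin was called, at 0.15 ± 0.03 (adjusted p = 2.2e-05).

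Laptm4a (ENSMUSG00000020585, chromosome 12, 8921664 to 8938742 in GRCm38, plus strand), encoding a small membrane protein of late endosomes and lysosomes, rose slightly in each group. Laptm4a had 260.0, 256 and 254 RPKM in the RapaLink-1 libraries, 268, 261 and 266 in the Torin1 libraries, 272, 266 and 271 in the rapamycin libraries and 245, 238 and 239 in the DMSO libraries. Each treated library lay above the DMSO libraries, and rapamycin had the highest mean. Laptm4a rose by 0.09 ± 0.02, 0.14 ± 0.02 and 0.17 ± 0.02 with RapaLink-1, Torin1 and rapamycin (adjusted p = 1.67e-07, 8.5e-14 and 7.23e-18). RapaLink-1 against Torin1, at -0.04 ± 0.02 (adjusted p = 0.026), was lost without any 1 of Torin1 replicates 1 and 3 or RapaLink-1 replicates 1 to 3 (-0.05 to -0.03). Cln3, a membrane protein gene lost in juvenile Batten disease, had 48 to 82 counts per library, 793 in all. Apobr, with 656 counts in all, overlaps 7.65% of its exonic bases, so its level is uncertain. It was at 0.35 ± 0.16 with RapaLink-1 and 0.47 ± 0.16 with Torin1, both called, and at 0.03 ± 0.17 with rapamycin, and the RapaLink-1 call was lost without any 1 of the DMSO libraries or RapaLink-1 replicate 1 or 2 (0.26 to 0.38). Cd68, the macrophage marker macrosialin, was not called against DMSO, at 0.003 ± 0.14, 0.09 ± 0.14 and -0.15 ± 0.14 with RapaLink-1, Torin1 and rapamycin, at a level of 1.38 to 2.42 RPKM in all libraries.

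Set directly against rapamycin, Torin1 gave 30 higher and 8 lower of the 45 genes, against 34.2% and 33.2% of all genes tested, with a median of 0.28 (0.02 over all genes). The 8 lower ones were Ctsd, Ctsk, Gusb, Fuca1, Arsb, Galns, Sgsh and Smpd1. Their differences ran from -0.65 (Arsb) to -0.07 (Ctsd). The calls of Ctsk, at -0.27 ± 0.09, and Fuca1, at -0.11 ± 0.04, were lost without Torin1 replicate 1 (-0.19) and without rapamycin replicate 3 (-0.09). RapaLink-1 against rapamycin gave 33 higher and 5 lower, against 32% and 33% of all genes tested, with a median of 0.37 (0.008 over all genes). The 5 lower ones were Ctsd, Gusb, Fuca1, Arsb and Laptm4a. Ctsd, at -0.05 ± 0.02, lost its call without rapamycin replicate 1 (-0.04) or 3 (-0.04), and with upper-quartile scaling it was at 0.02 and Laptm4a at 0.002. With upper-quartile scaling the lower calls numbered 5 for Torin1 and 2 for RapaLink-1, and the calls over all genes for RapaLink-1 against rapamycin were 6296 higher and 4311 lower with that scaling, and 5088 and 5260 before.

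RapaLink-1 against Torin1, the pair that block the kinase itself, differed in smaller steps. RapaLink-1 was higher for 28 of the 45 genes and lower for 3, against 16.7% and 16.4% of all genes tested, with a median of 0.10 (-0.002 over all genes). A difference of at least 1.5-fold was found for Manba, where 1.16% of all genes rose that far. The falls were Lipa, Npc2 and Laptm4a. The other 14 genes were not called. The 95% interval of the difference was -0.02 to 0.04 for Ctsl, -0.03 to 0.06 for Ids, -0.04 to 0.05 for Ppt1 and 0.004 to 0.10 for Npc1, which was called without Torin1 replicate 1 (0.07) or 3 (0.07). By group means, 26 of the 45 genes had the order RapaLink-1, Torin1, rapamycin and DMSO from the highest, and 4 had Torin1 first in an otherwise like order. The share of all genes tested with these orders was not computed, so nothing is read from these counts. Some of the orders rest on differences that were not called, such as 0.006 for Ppt1 between RapaLink-1 and Torin1. 

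**Figure D4:**
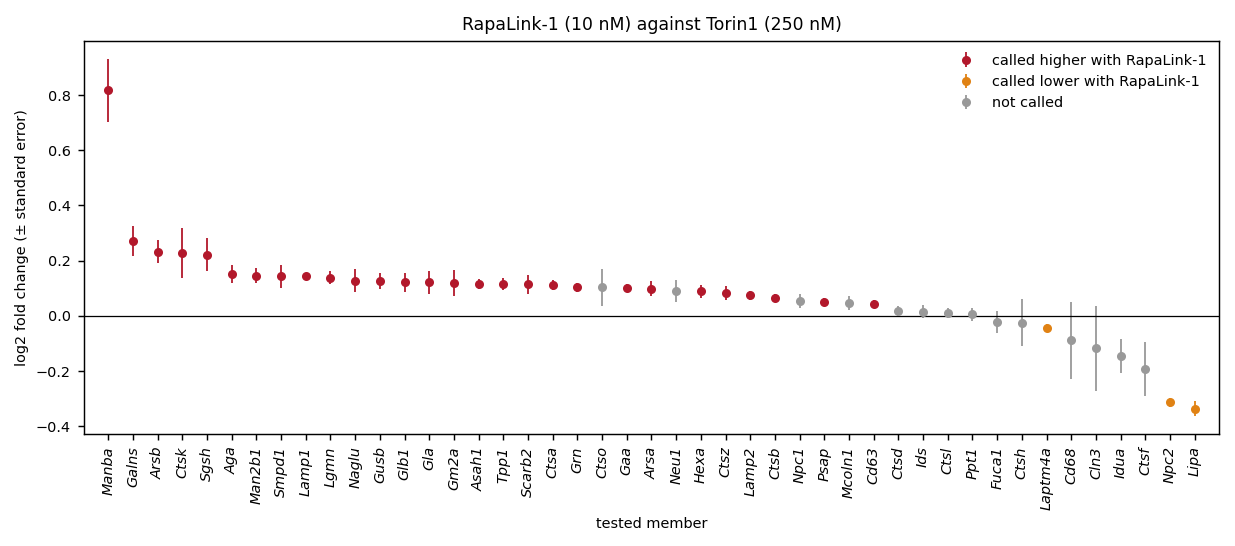
Log2 difference between RapaLink-1 and Torin1 for each of the 45 genes, with bars of 1 standard error and colours for called or not called. Manba lies far to the side of RapaLink-1 at 0.82, and Lipa (-0.34) and Npc2 (-0.31) to that of Torin1.

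The 14 genes whose promoter window held CACGTG and the 25 tested genes whose window did not had medians against DMSO of 0.54 and 0.55 with RapaLink-1, 0.45 and 0.48 with Torin1 and 0.15 and 0.17 with rapamycin. All 14 with the motif rose with RapaLink-1, as did 21 of the 25 without it, where 38.7% of all genes tested rose. With Torin1, 13 of the 14 and 19 of the 25 rose, where 39.8% of all genes tested did. With rapamycin, 10 of the 14 and 18 of the 25 rose, where 27.5% of all genes tested did. Of the genes printed, Ctsf and Arsa had large rises and Lamp1, with 4 copies of the motif, rose by 0.38 ± 0.01 with RapaLink-1, less than Gaa with 1 copy at 0.89 ± 0.02. Between compounds the medians of the genes with and without CACGTG were 0.41 and 0.23 for Torin1 against rapamycin, 0.42 and 0.25 for RapaLink-1 against rapamycin and 0.11 and 0.09 for RapaLink-1 against Torin1. For the 5 genes with TCACGTGA and the 34 without it they were 0.63 and 0.54 with RapaLink-1, 0.51 and 0.42 with Torin1 and 0.24 and 0.15 with rapamycin against DMSO. These medians and counts are given with no test between genes with and without the motif. Absence of these letters says nothing of the rest of a gene's regulatory sequence.

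Lysosomal genes beyond the 46 were described from lists, which were also chosen with earlier results of these data known. Of 28 other lysosomal hydrolases, 21 rose and 1 fell with RapaLink-1, 19 and 3 with Torin1 and 14 and 4 with rapamycin, with medians of 0.48, 0.52 and 0.16. Among them was Man2b2, an α-mannosidase gene, at 1.57 ± 0.03, 1.32 ± 0.03 and 0.59 ± 0.04. Of 24 other lysosomal membrane proteins tested, 18 rose and 3 fell with RapaLink-1, 17 and 3 with Torin1 and 15 and 2 with rapamycin. The medians of this list were 0.29, 0.33 and 0.17. Ctns, the cystine exporter gene, was at 1.37 ± 0.05, 1.40 ± 0.04 and 0.58 ± 0.05, the transporter gene Mfsd1 at 0.62 ± 0.02, 0.59 ± 0.02 and 0.10 ± 0.02, and Glmp, whose product is a partner of MFSD1, at 0.83 ± 0.02, 0.71 ± 0.02 and 0.39 ± 0.02. Tmem79 overlaps 20.3% of the exonic bases of Glmp. Over all genes tested, 38.7% rose and 37.9% fell with RapaLink-1, 39.8% and 38.3% with Torin1 and 27.5% and 32.2% with rapamycin.

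Of 13 genes for sorting and maturing the enzymes, 7 rose and 4 fell with RapaLink-1, 8 and 4 with Torin1 and 4 and 7 with rapamycin. With so few genes, several of these shares lie near those of all genes tested, and nothing is read from them. Igf2r, encoding the large mannose 6-phosphate receptor, rose by 0.56 ± 0.02 with RapaLink-1 and 0.22 ± 0.02 with Torin1 and changed by -0.32 ± 0.02 with rapamycin, and the difference between Torin1 and rapamycin was 0.54 ± 0.02 (adjusted p = 1.38e-63). Sort1, encoding the sorting receptor sortilin, changed by -1.25 ± 0.05 with RapaLink-1, -1.65 ± 0.05 with Torin1 and -0.13 ± 0.04 with rapamycin. Gnptab, encoding the enzyme that starts the mannose 6-phosphate tag, rose by 0.48 ± 0.03 with RapaLink-1 and 0.45 ± 0.03 with Torin1 and was at 0.00 ± 0.03 with rapamycin. Of 4 cathepsin inhibitor genes tested, 2 rose and 2 fell with RapaLink-1 and with Torin1. The serpin gene Serpinb6a rose by 0.47 ± 0.02 and 0.38 ± 0.02 in that order, and other genes overlap 29.3% of its exonic bases. Cstb, of the cytosolic inhibitor cystatin B, rose by 0.56 ± 0.03 and 0.45 ± 0.03, and Cst3, of the secreted inhibitor cystatin C, changed by -0.38 ± 0.02 and -0.26 ± 0.02.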

How the data were processed

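RNA from 12 MEF libraries was grouped by the treatment label. The authors deposited read counts per gene, made with featureCounts per the file headers. The build was GRCm38, and the tools listed per the submitters' processing notes were STAR 2.5.2b, Trimmomatic 0.36, Subread 1.5.2 and DESeq2. Not given in the sources used here were the strand setting and the treatment of reads with several matches. For that reason genes that share over 7% of their exonic bases with others are given with that share and their levels are uncertain. Smaller shares were those of Idua (6.3%), Glb1 (5.49%), Ppt1 (3.51%), Npc1 (2.63%), Grn (1.96%) and Ctsz (0.69%). Symbols came from GENCODE M21, which held 49056 of the 49315 IDs.

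The 46 genes, the lists and the markers were chosen with earlier results of these data known. Genes passing filterByExpr by group (15917) entered the tests of edgeR 4.0.16 (R 4.3.3), with TMM scaling and a robust quasi-likelihood fit of all 12 libraries with the group as its only term (8 residual degrees of freedom). The tests also drew on prior degrees of freedom estimated across genes, with a median of 154.2, so small p-values do not rest on the libraries of a single gene alone. Contrasts were two-sided, with Benjamini-Hochberg adjustment over all genes tested. Calls were made at an adjusted p under 0.05. Standard errors were derived from the same fit, as the size of the log2 fold change divided by the square root of its F statistic. The 95% intervals were built from these standard errors. RPKM were computed from the counts, the TMM-scaled library sizes and the exonic length in the tables. Depth was 30075870 to 39423703 counts per library. The fit was tested on simulated data. Replicate libraries differed beyond counting noise (chi-square over its degrees of freedom 1.34 to 2.06), so none looked like a library deposited again. The alternatives were DESeq2 1.42.0, limma 3.58.1 voom, other scalings, filters and libraries, a replicate block, and leaving out each library.

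Full values are given for the genes of each role with the highest level, the largest called rise and the largest called fall against DMSO, for genes called in opposite directions by 2 compounds, for the 3 largest called rises and falls of RapaLink-1 against Torin1, and for Grn. From the other lists, up to 3 genes of smallest p with RapaLink-1 are named, less those not reported here. Promoter windows are those of RefSeq.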

Additional observations from a re-analysis of the deposited data

How the results depend on the processing

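The counts of called genes against DMSO held their direction under 8 other ways of processing with all 12 libraries or the 6 compared, with 39 to 44 called for RapaLink-1, 35 to 41 for Torin1 and 28 to 39 for rapamycin, the 28 being those of DESeq2. The 5 CPM filter tested fewer of the 45. The count of genes lower with rapamycin than with DMSO was 2, and became 1 with DESeq2, with upper-quartile scaling, when genes under a mean of 5 CPM were dropped and when only the 6 libraries compared were fitted, as Scarb2 lost its call. Leaving out single libraries gave 1 to 2, the count being 1 without DMSO replicate 2, rapamycin replicate 1 or rapamycin replicate 3. With upper-quartile scaling the lower genes for Torin1 against rapamycin numbered 5 in place of 8, and those for RapaLink-1 against rapamycin 2 in place of 5. The same scaling turned the sign of 6 single values that were called with or without it. Sign changes of values called in neither fit were not counted. Against DMSO, the 6 became 0.10 for Smpd1 and 0.084 for Scarb2 with Torin1, and 0.04 for Gaa with rapamycin. Against rapamycin, they became 0.036 for Laptm4a with Torin1, and 0.024 for Ctsd and 0.002 for Laptm4a with RapaLink-1. Of the values of single genes, 3611 held their side of the threshold, 107 lost and 32 gained a call, and the cause was not tested. The 3611 include values called in neither fit, whose direction may have changed. With the replicate number as a block, 43 genes were called for RapaLink-1, 39 for Torin1 and 35 for rapamycin against DMSO, where 43, 39 and 36 were called without it. Same-numbered libraries were not seen to deviate together, with correlations of -0.04 to 0.06 over 18 pairs. Pairs with unlike numbers had -0.05 to 0.04 over 36 pairs. Replicates this close leave little but counting noise to correlate, so the check cannot exclude that samples were handled in numbered sets. Low counts limit Cln3, Manba and Ctsf, and Ctss could not be tested. The smallest p that exact permutation of 3 libraries against 3 allows is 0.1.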
